A study of Homo sapiens with 10 samples.

Results

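The 10 genes followed here belong to the G1 checkpoint and its neighbourhood, and were measured in 2 glioma cell lines in which the homeobox gene MEOX2 was lowered or raised. They were the 3 CIP/KIP inhibitors CDKN1A, CDKN1B and CDKN1C, the 4 INK4 genes CDKN2A, CDKN2B, CDKN2C and CDKN2D, the cyclin gene CCND1, the retinoblastoma gene RB1, and MTAP, the neighbour of CDKN2A. They were taken by gene symbol and made up 10 of the 34567 genes in the expression table, by a rule that used no measured value. The members were nevertheless chosen with earlier results of these data known. RNA sequencing of polyadenylated RNA was used to ask what suppression and activation of MEOX2 do to gene expression. SNB19 cells carried either scrambled siRNA (NC, n = 3) or siRNA against MEOX2 (siMEOX2, n = 3), both delivered with a Lipofectamine reagent, and the sequence of the siRNA was not given with the samples. U87 cells carried lentivirus with an empty vector (EV, n = 2) or with MEOX2 (OE, n = 2), introduced with polybrene as lines under puromycin selection, so every U87 library came from transduced cells. All cells grew in DMEM with 10% serum. Nothing in the labels says that replicates were separate cultures, so every p-value below measures the spread between these libraries, which may be technical.

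Cyclin D1, the product of CCND1, binds CDK4 or CDK6 in G1, and the kinase complex phosphorylates the retinoblastoma protein, which releases E2F factors that switch on genes of DNA synthesis. INK4 proteins (p16 from CDKN2A, p15 from CDKN2B, p18 from CDKN2C and p19 from CDKN2D) bind CDK4 and CDK6 directly, whereas p21 (CDKN1A), p27 (CDKN1B) and p57 (CDKN1C) act on cyclin-CDK complexes and most strongly on those of CDK2. This axis is among the most often altered in glioblastoma. MTAP, which cleaves methylthioadenosine in the methionine salvage route, lies next to CDKN2A on chromosome 9p21.

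The start regions of 3 inhibitor genes whose RNA fell together in SNB19, and of MTAP, whose RNA did not, are shown because MEOX2 is a homeodomain protein and such proteins often bind sites with a TAAT core. Each is the RefSeq sequence (GRCh38.p14) from 250 bases before to 50 bases after an annotated start, 5′ to 3′. Capitals mark the homeodomain core TAAT, the GC-box core GGGCGG and the TATA-box core TATAAA, each searched on both strands, and matches may overlap.
CDKN1A, chr6:36678464-36678763, plus strand: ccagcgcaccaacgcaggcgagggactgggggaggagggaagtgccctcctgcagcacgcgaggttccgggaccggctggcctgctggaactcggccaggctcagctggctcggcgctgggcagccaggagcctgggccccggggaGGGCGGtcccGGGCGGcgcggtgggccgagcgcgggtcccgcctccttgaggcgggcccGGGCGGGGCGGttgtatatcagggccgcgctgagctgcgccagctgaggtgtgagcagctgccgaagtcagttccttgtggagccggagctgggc
CDKN1B, chr12:12717118-12717417, plus strand: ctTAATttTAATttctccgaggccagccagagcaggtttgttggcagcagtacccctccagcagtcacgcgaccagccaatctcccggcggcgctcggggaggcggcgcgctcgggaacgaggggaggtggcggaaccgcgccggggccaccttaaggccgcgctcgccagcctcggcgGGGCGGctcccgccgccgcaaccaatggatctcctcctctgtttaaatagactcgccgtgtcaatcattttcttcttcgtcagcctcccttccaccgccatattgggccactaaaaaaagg
CDKN2D, chr19:10568930-10569229, minus strand: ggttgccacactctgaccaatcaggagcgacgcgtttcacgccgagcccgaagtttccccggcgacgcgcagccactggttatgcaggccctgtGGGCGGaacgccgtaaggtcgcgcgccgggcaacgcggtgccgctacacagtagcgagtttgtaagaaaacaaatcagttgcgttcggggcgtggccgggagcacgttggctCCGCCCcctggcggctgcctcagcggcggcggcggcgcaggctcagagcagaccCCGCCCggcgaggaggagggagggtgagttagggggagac
MTAP, chr9:21802386-21802685, plus strand: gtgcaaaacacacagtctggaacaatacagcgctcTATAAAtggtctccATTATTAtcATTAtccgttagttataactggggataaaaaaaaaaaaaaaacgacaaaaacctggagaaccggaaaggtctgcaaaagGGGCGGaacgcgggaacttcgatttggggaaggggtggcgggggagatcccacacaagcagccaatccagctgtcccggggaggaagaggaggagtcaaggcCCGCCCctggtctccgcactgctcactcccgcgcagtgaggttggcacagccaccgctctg
The CDKN1A window held 4 GGGCGG matches and no TAAT, and the CDKN2D window 3 GGGCGG matches and no TAAT. The CDKN1B window held 2 TAAT matches at its upstream end and 1 GGGCGG, and the MTAP window 3 TAAT matches, 2 GGGCGG and 1 TATAAA. Across 35116 windows of this kind, 50.2% held TAAT, 45.0% GGGCGG and 11.5% TATAAA on either strand. The longer homeodomain sequence TAATTA, present in 4.84% of all windows, was in none of the 4 printed here. A match describes these letters only, since binding was not measured.

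The libraries held 12533775 to 16560324 reads assigned to genes. MEOX2 checked the labels first. Its normalised read count, in counts-per-million after TMM scaling over the 10 libraries (CPM), was 14.4, 15.5 and 16.7 in NC and 3.13, 2.46 and 3.07 in siMEOX2. It fell 5.31-fold (log2 fold change -2.41 ± 0.14 (SE); edgeR adjusted p = 1.08e-11). In U87 MEOX2 had no read in either EV library and 414 and 382 CPM in OE, at least 3260-fold above the level that 3 reads over the EV group would give, so that overexpression was set against a line without measurable MEOX2. Of the glioma markers, VIM and CD44 were abundant in every library, whereas S100B had at most 0.303 CPM in SNB19 and no read in U87, and SOX2 was at most 0.248 CPM in U87 against 29.3 to 34.5 CPM in NC. Replicates were close in 3 groups, with a chi-square per degree of freedom of 2.06 to 6.56 between libraries of the same group. EV replicate 1 stood apart from EV replicate 2, with a value of 279.8, and ribosomal protein genes took 14.8% of its reads against 4.6% to 7.5% in the other 9 libraries. The U87 values of the expressed members are therefore given against each control library as well.

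The 10 genes fell into an expressed and a nearly silent set. CDKN2A had 1 read in all of SNB19 and none in U87, CDKN2B likewise 1 and none, and CDKN2C 2 and none, out of 89964425 reads in SNB19 and 57387200 in U87. A count of 0 in U87 allows a level of up to 0.0523 reads-per-million (RPM), and this limit covers counting error only. MTAP was expressed in SNB19 alone, and CDKN1C was expressed in SNB19 with only 2 reads in EV and 3 in OE. CDKN1A, CDKN1B, CDKN2D, CCND1 and RB1 were expressed in both lines.

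**Figure D1:**
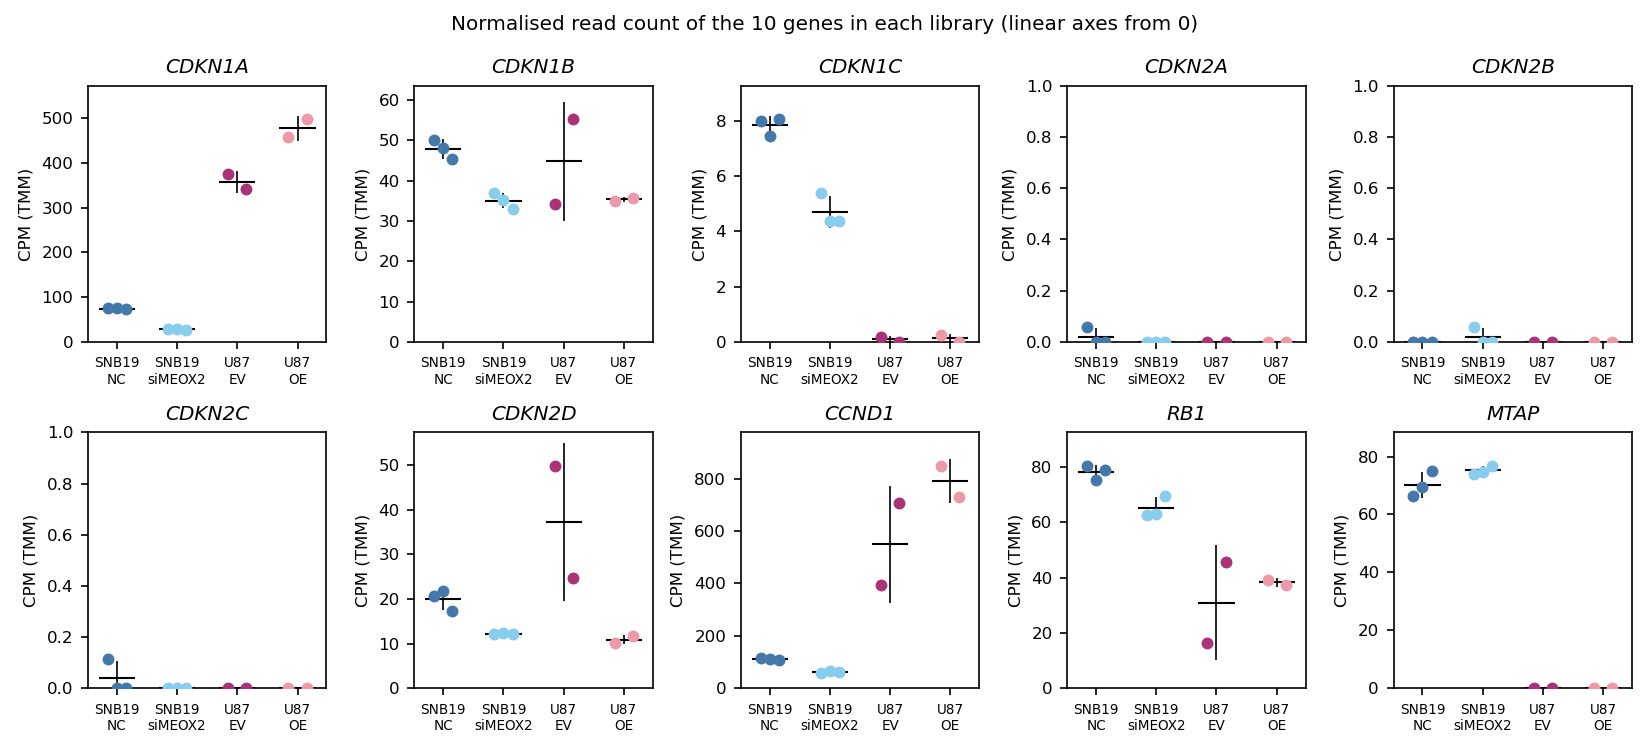
Normalised read count (CPM after TMM scaling, linear axis from 0, y) of each of the 10 genes in every library, by group (x). Points are libraries, the horizontal line is the group mean and the vertical line ± 1 SD. CDKN1A, CCND1 and CDKN1C fell in all 3 siMEOX2 libraries, CDKN2A, CDKN2B and CDKN2C stayed at the floor in all 4 groups, and MTAP had no read in the 4 U87 libraries.

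Per base of exon, CDKN1A and CCND1 led in NC, EV and OE, but CCND1 and CDKN1B led in siMEOX2. In NC the order by FPKM (mean ± SD, n = 3) was CDKN1A at 25.7 ± 0.313, CCND1 at 24.5 ± 0.472, CDKN1B at 17.9 ± 0.765, CDKN2D at 14.0 ± 1.54, RB1 at 12.8 ± 0.407, MTAP at 5.07 ± 0.36 and CDKN1C at 3.34 ± 0.146, and of these neighbours only CDKN2D and RB1 overlapped. In siMEOX2 CDKN1A stood in the fourth place at 10.2 ± 0.227 FPKM, below CCND1 at 14.3 ± 1.17, CDKN1B at 14.0 ± 0.578, the first 2 overlapping, and RB1 at 11.3 ± 0.806. In EV (n = 2) CCND1 at 98.0 ± 58.8 FPKM and CDKN1A at 95.8 ± 14.9 overlapped, as did CDKN2D at 19.4 ± 5.17 and CDKN1B at 13.6 ± 7.23, with RB1 last at 4.24 ± 3.51. In OE (n = 2) CCND1 at 156 ± 18.1 and CDKN1A at 150 ± 7.46 FPKM overlapped again, and CDKN1B at 12.03 ± 0.0715, CDKN2D at 6.95 ± 0.59 and RB1 at 5.67 ± 0.274 followed in separate steps. CDKN2D thus lay above CDKN1B in 1 and below it in the other U87 group, although the EV ranges overlapped. MTAP's level per length is set against an exon length of 14617 bases, the longest of the 10 genes.

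Knockdown of MEOX2 in SNB19 lowered inhibitors, cyclin D1 and RB1 together. Of the 10 genes, 7 had enough reads to be tested, and 6 of them fell, none rose and MTAP did not pass the test, where 56% of the 15525 genes tested passed, 28.5% of them lower and 27.4% higher (edgeR quasi-likelihood test, Benjamini-Hochberg adjusted p under 0.05). The median log2 fold change of the 7 was -0.69, beside 0.01 over all genes tested. CDKN1A alone also passed the study's threshold of a fold above 2 with an unadjusted p under 0.05, which 10.8% of all genes did, 5.17% of them lower and 5.58% higher.

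Among the CIP/KIP genes CDKN1A, which encodes p21, moved most. It measured 75.5, 74.8 and 72.7 CPM in NC and 29.0, 27.7 and 26.9 CPM in siMEOX2. The groups were far apart, and each was tight. CDKN1A fell 2.64-fold (log2 -1.40 ± 0.07; edgeR adjusted p = 2.68e-13). CDKN1B, whose protein p27 restrains entry into S phase, measured 50.1, 48.1 and 45.3 CPM in NC and 36.9, 35.2 and 33.0 CPM in siMEOX2. All 3 knockdown libraries lay below all 3 controls, and the fall was 1.35-fold (log2 -0.43 ± 0.07; edgeR adjusted p = 2.47e-05). CDKN1C, an imprinted gene encoding p57, measured 8.02, 7.48 and 8.06 CPM in NC and 5.38, 4.37 and 4.38 CPM in siMEOX2. It rested on the fewest reads, 70 to 139 a library, and fell 1.65-fold without overlap (log2 -0.72 ± 0.15; edgeR adjusted p = 0.000296).

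CDKN2D was the one INK4 gene that could be tested. It measured 20.8, 21.7 and 17.3 CPM in NC and 12.1, 12.4 and 12.1 CPM in siMEOX2. NC replicate 3 was the lowest control and still lay above every knockdown library, and the fall was 1.61-fold (log2 -0.69 ± 0.10; edgeR adjusted p = 1.04e-05). No fold is given for CDKN2A, CDKN2B or CDKN2C, since each group held at most 2 reads of any of them.

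On the other side of the checkpoint, CCND1 measured 115, 113 and 109 CPM in NC and 57.2, 65.6 and 61.8 CPM in siMEOX2. The groups did not overlap, and CCND1 fell 1.81-fold (log2 -0.85 ± 0.06; edgeR adjusted p = 2.28e-10). RB1 measured 80.3, 75.3 and 78.7 CPM in NC and 62.6, 63.1 and 69.5 CPM in siMEOX2. Its fall was the smallest of the 6, 1.19-fold, again without overlap (log2 -0.25 ± 0.06; edgeR adjusted p = 0.00185). Thus the gene of the kinase partner and those of its inhibitors fell in the same libraries. MTAP measured 66.3, 69.4 and 75.1 CPM in NC and 74.1, 74.8 and 76.8 CPM in siMEOX2, and the groups overlapped (log2 0.11 ± 0.06; edgeR adjusted p = 0.134).

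The 6 calls held without any one library. They depended on which groups shared the estimate of spread: with all 4 groups in the same fit, which brings in the EV pair, only CDKN1A and CCND1 passed and the other 4 had edgeR adjusted p from 0.0743 (CDKN2D) to 0.611 (RB1), with log2 fold changes of -0.71 for CDKN2D, -0.45 for CDKN1B, -0.74 for CDKN1C and -0.26 for RB1.

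**Figure D2:**
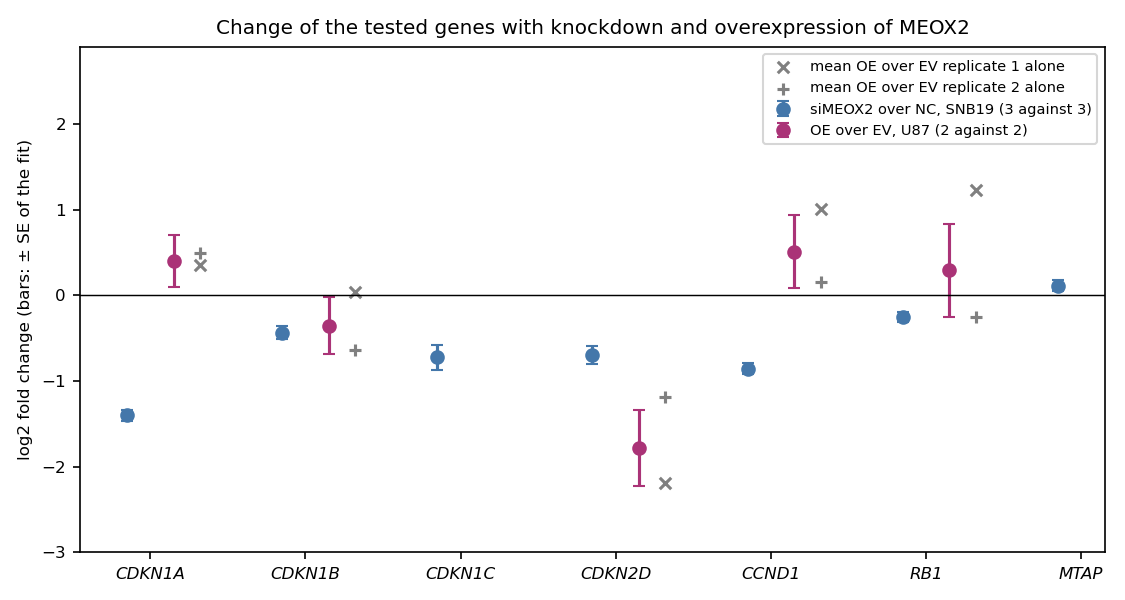
Log2 fold change (y) of each tested gene (x) with knockdown of MEOX2 in SNB19 and with its overexpression in U87. Circles with bars are the edgeR estimate ± SE, and grey crosses and plus signs are the mean of the OE libraries over EV replicate 1 alone and EV replicate 2 alone. CDKN1A lay below 0 with knockdown and above 0 with overexpression, CDKN2D lay below 0 in both, and for CDKN1B and RB1 the 2 EV libraries gave opposite signs.

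The rest of the pathway moved in SNB19 without a common direction, and the share of genes called in each list below has to be read against the 56% of all tested genes that were called. Of 10 tested G1 cyclins and kinases, 5 rose and 2 fell. The largest rises were in MNAT1 (log2 0.62 ± 0.09), CDK6 (0.56 ± 0.08), CDC25A (0.53 ± 0.06), the phosphatase that activates CDK2, and CDK7 (0.34 ± 0.06), with edgeR adjusted p of at most 0.000147. CDK4, the other partner of cyclin D1, measured 0.02 lower on the log2 scale (-0.02 ± 0.06; edgeR adjusted p = 0.794), and CCND2 had no read in SNB19. Of 12 genes of the RB family and its E2F partners, 3 rose and 3 fell. The pocket protein genes RBL1 (0.45 ± 0.09) and RBL2 (0.32 ± 0.06) rose while RB1 fell, and E2F4 (-0.31 ± 0.06) and TFDP1 (-0.18 ± 0.05) fell, with edgeR adjusted p of at most 0.00564.

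Of 10 genes that act on p27 and cyclin D1 protein, 3 rose and 1 fell, beside the 56% called over all genes. FBXO4 (log2 0.51 ± 0.09), FBXO31 (0.27 ± 0.07) and SKP2 (0.21 ± 0.06), which are F-box subunits of ubiquitin ligases, rose, and the adaptor SKP1 fell by 0.33 ± 0.05 (edgeR adjusted p at most 0.00488). Protein was not measured.

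Of 14 factors known to regulate CDK inhibitor genes, 5 rose and 4 fell, again beside 56% over all genes. MYC, whose protein represses CDKN1A and CDKN2B with the ZBTB17 product, rose by 1.35 ± 0.07 on the log2 scale (edgeR adjusted p = 7.62e-13), and ZBTB17 (0.35 ± 0.07) and KLF4 (0.75 ± 0.10) rose while CEBPA fell (-0.70 ± 0.11), with edgeR adjusted p of at most 0.000197. Around MTAP in metabolism, 6 of 11 genes of methionine salvage and polyamine synthesis fell and 1 rose. Ornithine decarboxylase ODC1 (-0.68 ± 0.06), spermine synthase SMS (-0.51 ± 0.06), the salvage enzyme ADI1 (-0.47 ± 0.09) and MAT2A (-0.22 ± 0.05), which makes S-adenosylmethionine, fell (edgeR adjusted p at most 0.000488). MTAP itself, as given above, was not called. Of 10 proliferation markers, 4 fell and 2 rose, led by CCNB1 (-0.60 ± 0.05) and MKI67 (-0.45 ± 0.06), then AURKA (-0.24 ± 0.05) and CDK1 (-0.23 ± 0.05), with edgeR adjusted p of at most 0.000939. Their summed level was 2290 to 2400 CPM in NC and 2040 to 2130 CPM in siMEOX2. The median log2 fold change was 0.19 for the G1 genes, 0.07 for the RB and E2F genes, 0.03 for the turnover genes, 0.11 for the regulators, -0.22 for the metabolic genes and -0.05 for the proliferation markers, beside 0.01 over all genes tested. Since counts are relative to the library, fewer transcripts per cell and fewer cells in a given state cannot be told apart.

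Markers of other lineages moved with the knockdown as well. Of 7 tested glioma markers 6 fell and 1 rose, with SOX9 at -1.85 ± 0.08, CD44 at -1.18 ± 0.05, VIM at -1.01 ± 0.05 and NES at -1.20 ± 0.09 on the log2 scale (edgeR adjusted p at most 6.42e-10), and their summed level over 9 genes went from 1220 to 1230 CPM in NC to 556 to 593 CPM in siMEOX2. Of 7 tested markers of other cell types, 4 fell and 2 rose. The endothelial genes PECAM1 (-2.62 ± 0.12) and CDH5 (-4.75 ± 0.44) both fell, and epithelial CDH1 (1.90 ± 0.25) and neuronal SYT1 (0.61 ± 0.15) rose (edgeR adjusted p at most 0.00142). The neuronal pair and the epithelial pair did not move together. Neuronal RBFOX3 fell (-1.32 ± 0.35; edgeR adjusted p = 0.00327) and epithelial EPCAM was not called (-0.19 ± 0.43; adjusted p = 0.723). The summed level of the markers of other cell types was 43.6 to 45.8 CPM in NC and 16.1 to 19.3 CPM in siMEOX2. CD3E was not in the table, and HBB and the leukocyte gene PTPRC were at or below 0.232 CPM in every library. The part of these markers in the changes of the 10 genes was not tested.

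In U87, overexpression of MEOX2 gave separated levels for 3 of the 10 genes, but none passed the test. Of the 10 genes 5 had enough reads, and 0 were called, as were 0 of all 14180 genes tested, 0% (edgeR quasi-likelihood test, Benjamini-Hochberg adjusted p under 0.05). MEOX2 itself was among the genes not called (edgeR adjusted p = 0.141, the smallest of any gene). At an unadjusted p under 0.05 there were 2503 genes, 17.7% of those tested, with 1 of the 5, CDKN2D. DESeq2 called 991 genes, again with CDKN2D alone of the 5, and the study's threshold of fold and unadjusted p passed CDKN2D, lower in OE, and 14.8% of all genes, 8.73% lower and 6.04% higher. The median log2 fold change of the 5 was 0.29, beside -0.06 over all genes tested.

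CDKN1A measured 374 and 341 CPM in EV and 457 and 497 CPM in OE. Both OE libraries lay above both controls, 0.35 above EV replicate 1 and 0.49 above EV replicate 2 on the log2 scale (fit 0.40 ± 0.30; edgeR adjusted p = 0.480). CDKN1B measured 34.3 and 55.2 CPM in EV and 34.9 and 35.7 CPM in OE. The OE libraries fell between the controls, with log2 differences of 0.04 from the first and -0.64 from the second (fit -0.35 ± 0.34; edgeR adjusted p = 0.571). CDKN1C had 2 reads in EV replicate 1 and 3 in OE replicate 1 and none in the other U87 libraries, so no fold is given.

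CDKN2D showed the widest separation. It measured 49.8 and 24.8 CPM in EV and 10.2 and 11.6 CPM in OE, so that the OE libraries were close to each other and below both controls. The log2 difference was -2.19 against EV replicate 1 and -1.18 against EV replicate 2 (fit -1.79 ± 0.44; edgeR adjusted p = 0.210). CCND1 measured 392 and 708 CPM in EV and 848 and 730 CPM in OE. All OE values were higher, by 1.01 over EV replicate 1 but by 0.16 over EV replicate 2 on the log2 scale (fit 0.51 ± 0.43; edgeR adjusted p = 0.521). RB1 measured 16.3 and 45.6 CPM in EV and 39.2 and 37.2 CPM in OE, 1.23 above the first control and -0.25 relative to the second (fit 0.29 ± 0.54; edgeR adjusted p = 0.765). MTAP, CDKN2A, CDKN2B and CDKN2C had no read in any U87 library, with MEOX2 absent or present.

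Leaving out a control changed what was called, under the assumption that the lone control library varies like the OE pair. Without EV replicate 1, CDKN1A was higher (log2 0.48, edgeR adjusted p = 7.45e-05) and CDKN1B (-0.65, adjusted p = 2.17e-06) and CDKN2D (-1.18, adjusted p = 2.39e-12) were lower, and 7052 of 14875 genes passed. Without EV replicate 2, CDKN1A (0.37, edgeR adjusted p = 0.00414), CCND1 (1.03, adjusted p = 1.89e-14) and RB1 (1.24, adjusted p = 2.06e-15) were higher and CDKN2D (-2.17, adjusted p = 3.51e-50) was lower, and 10616 of 14912 genes passed. These fits share the OE libraries and are not independent of each other. CDKN1A and CDKN2D were called when all 4 groups shared a fit (CDKN1A 0.42, edgeR adjusted p = 0.0437; CDKN2D -1.77, adjusted p = 0.00335). In that fit the EV pair shared an estimate of spread with the closer replicates of the other groups.

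The EV libraries differed along gene length. On plain RPM, without TMM scaling, the median log2 ratio of EV replicate 1 to EV replicate 2 went from 0.50 in the shortest of 5 equal bins of genes (median exon length 2.16 kb) to -1.20 in the longest (10.9 kb), while the OE pair went from -0.09 to 0.10. On this scale CDKN2D, the shortest member at 1.50 kb, stood at 0.55, CDKN1A at -0.32, CDKN1B at -1.14, CCND1 at -1.31 and RB1, at 6.45 kb, at -1.93. With a gene-length term in the fit, CDKN2D was -1.31 (edgeR adjusted p = 0.0948) and CDKN1A 0.62 (adjusted p = 0.244). The source of the difference was not tested.

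None of the pathway lists described here had a called gene in U87, so their leading values are given without a call. Of the G1 genes CCND3 had a log2 fold change of -1.21 ± 0.31 and CDK2 -0.80 ± 0.25, and of the E2F genes E2F2 -1.85 ± 0.27 and E2F1 -1.36 ± 0.36. SKP2, which targets p27 for degradation, stood at -2.20 ± 0.31 and its cofactor gene CKS1B at -1.44 ± 0.56. MYC at 1.54 ± 0.34 and KLF6 at 1.83 ± 0.41 led the regulators of inhibitor genes, and ODC1 at 1.78 ± 0.37 and ADI1 at -1.50 ± 0.53 the methionine and polyamine genes. Their edgeR adjusted p lay between 0.157 and 0.291, and the list medians were 0.07 for the G1 genes, 0.05 for the RB and E2F genes, -0.10 for the turnover genes, 0.39 for the regulators and -0.01 for the metabolic genes, beside -0.06 over all genes tested. Nor did glioma markers pass, led by NES at -4.04 ± 0.45 and OLIG2 at 1.77 ± 0.36, or markers of other cell types, led by PECAM1 at -1.97 ± 0.50 and EPCAM at -2.22 ± 0.58. The summed glioma markers were 2140 to 5990 CPM in EV and 1380 to 1390 CPM in OE, and those of other cell types 15.8 to 16.1 CPM in EV and 10.7 to 11.6 CPM in OE. The wide range of the glioma sum in EV was mostly VIM. It measured 5101.9 CPM in EV replicate 1, 1303.5 CPM in EV replicate 2, and 627 and 645 CPM in OE.

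Proliferation markers in U87 lay lower in OE for 9 of 10 genes against EV replicate 1 and for 10 of 10 against EV replicate 2, with median log2 differences of -0.88 and -1.35, and their summed level was 1630 to 2040 CPM in EV and 735 to 779 CPM in OE. None was called, with CCNB1 at -2.04 ± 0.30 (edgeR adjusted p = 0.157) and CDKN3 at -2.11 ± 0.46 (adjusted p = 0.189) of smallest p. Their part in the levels of CDKN1A and CDKN2D in the same libraries was not tested.

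The responses of CDKN1A and CDKN2D to MEOX2 differed between the lines in a fit where all 4 groups shared the estimate of spread. Each effect was written as the higher-MEOX2 group minus the lower, NC minus siMEOX2 in SNB19 and OE minus EV in U87, and the SNB19 effect minus the U87 effect was tested in a fit of all 10 libraries, where 23.8% of 17312 genes passed, 13.8% with a positive and 9.94% with a negative difference, and 2 of the 7 members tested did, both positive. The estimate for CDKN1A was higher with more MEOX2 in both lines, though in the fit of U87 alone it was not called (edgeR adjusted p = 0.480). The CDKN1A effect in SNB19 was larger by 1.00 ± 0.17 on the log2 scale (edgeR adjusted p = 0.00326). The CDKN2D estimates went opposite ways, higher with more MEOX2 in SNB19 and lower in U87, with a difference of 2.47 ± 0.37 (edgeR adjusted p = 0.00195). In the fit of U87 alone CDKN2D was not called (edgeR adjusted p = 0.210). Both calls of a difference held without any one library, with differences of 0.88 to 1.06 for CDKN1A and 1.84 to 2.84 for CDKN2D. In any fit without an EV library, the lone control was assumed to vary like the closer replicates of the other groups. A call there passes more easily and does not test the spread between the EV libraries. The fit had no gene-length term, although the EV libraries differed along gene length. It also gave the EV pair the spread shared by all groups. In U87 alone the SE was 0.30 for CDKN1A and 0.44 for CDKN2D, larger than the SE of each difference. CDKN1B (0.79 ± 0.26; edgeR adjusted p = 0.0588), CCND1 (0.35 ± 0.32; adjusted p = 0.453) and RB1 (-0.04 ± 0.46; adjusted p = 0.990) were not called, and RB1 depended on the control: 0.47 without EV replicate 1 (edgeR adjusted p = 0.00302) and -1.01 without EV replicate 2 (adjusted p = 6.11e-07). Without EV replicate 1 CDKN1B (1.04, edgeR adjusted p = 9.36e-08) and CCND1 (0.67, adjusted p = 4.91e-06) were also called. The lines differ too in the change of MEOX2 itself, from a partial fall in SNB19 to expression from nothing measurable in U87, and in the reagent used, and these cannot be told apart from the line.

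The checkpoint genes differed widely between the control groups of the lines. In NC against EV, 6 of the 7 members tested passed, 3 higher and 3 lower in SNB19, where 56.4% of 17312 genes passed, 27.9% higher and 28.6% lower (edgeR, 4 groups in the same fit). Both groups are also controls of the comparisons above, and cell line, reagent and batch cannot be told apart. CDKN1A was 4.80-fold lower in SNB19 than in U87 (log2 -2.26 ± 0.12; edgeR adjusted p = 7.84e-07), CCND1 4.89-fold lower (-2.29 ± 0.22; adjusted p = 3.47e-05) and CDKN2D 1.87-fold lower (-0.90 ± 0.25; adjusted p = 0.0140). RB1 was 2.52-fold higher in SNB19 (1.33 ± 0.34; edgeR adjusted p = 0.00903). The size of this fold depended on the control, with 16.3 CPM in EV replicate 1 and 45.6 CPM in EV replicate 2 against 75.3 to 80.3 CPM in NC. The fit of NC against EV given here had no gene-length term, although the EV libraries differed along gene length. On plain RPM the log2 ratio of EV replicate 1 to EV replicate 2 was 0.55 for CDKN2D, -0.32 for CDKN1A, -1.31 for CCND1 and -1.93 for RB1. CDKN1C had 380 reads in NC and 2 in EV, both in EV replicate 1, a ratio of 96.9 after scaling the pooled reads by TMM library size (95% interval 26.6 to 803 from counting error alone). MTAP was at least 576-fold higher, taking 3 reads over the EV group as the floor. CDKN1B was the one tested member not called (log2 0.09 ± 0.19; edgeR adjusted p = 0.684), though without EV replicate 2 it passed at 0.45 (adjusted p = 0.000705). CDKN2D lost its call without NC replicate 3 (-0.80, edgeR adjusted p = 0.0530), without EV replicate 1 (-0.32, adjusted p = 0.0529) and with the 2 control groups alone (-0.91, adjusted p = 0.0822), where RB1 lost its call too (adjusted p = 0.0683).

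Of the 3 nearly silent genes, CDKN2A and CDKN2B sat among neighbours that were expressed differently in the 2 lines. On chromosome 9 of GRCh38 the annotation places MTAP at chr9:21802543-21937651 on the plus strand, CDKN2A at chr9:21967753-21995301 and CDKN2B at chr9:22002903-22009363, both on the minus strand. The end of MTAP lies 30.1 kb from the nearest end of CDKN2A. In U87 a run of 25 protein-coding genes from MLLT3 to DMRTA1, 2.11 Mb long, of which 16 are in the table, held 12 reads in all. All 12 came from OE replicate 2, at most 3 for any gene. Of these 16 genes 8 are interferon genes, which few cells transcribe without induction, among them IFNB1 (1 read in SNB19 and none in U87), IFNA1 (none and 1) and IFNE (4 and 1). The other 8 were MLLT3 (813 reads in SNB19, 3 in U87), FOCAD (7589 and 3), HACD4 (95 and 1), KLHL9 (5507 and 0), MTAP (7112 and 0), CDKN2A (1 and 0), CDKN2B (1 and 0) and DMRTA1 (1049 and 0). SNB19 thus transcribed the genes on both sides of CDKN2A and CDKN2B, but those 2 had 1 read each.

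Beyond this run U87 had reads again. On the side of the short arm's end SLC24A2, which precedes MLLT3 on the map, had 31 to 111 reads a library in U87 and 0 to 6 in SNB19, and RPS6, a ribosomal protein gene, had 5569 to 20844 reads a library in U87. On the other side ELAVL2, a neuronal RNA-binding protein gene 1.83 Mb from the CDKN2A start, had 20 to 28 reads a library in U87 and 1 in all of SNB19, and TUSC1 had 418 to 632 reads a library in U87 and 9 in all of SNB19. CAAP1 (3774 reads in SNB19 and 720 in U87), PLAA (8113 and 1607), IFT74 (1996 and 650) and C9orf72 (1414 and 1319) were expressed in both lines, whereas LRRC19 (24 and 4), TEK (74 and 56) and MOB3B (10 and 2) were low in both. Of the non-coding genes between, FOCAD-AS1, MIR31HG, CDKN2A-DT and LINC01239 had no read in U87, and in SNB19 at most 13, 5, 4 and 9 reads in a library. With knockdown in SNB19, where 56% of all genes were called, 5 of 10 tested genes of the neighbourhood rose, FOCAD (log2 0.42 ± 0.06), CAAP1 (0.37 ± 0.07), C9orf72 (0.46 ± 0.10), PLAA (0.23 ± 0.06) and MLLT3 (0.32 ± 0.13), and KLHL9 (-0.27 ± 0.06) and DMRTA1 (-0.40 ± 0.13) fell (edgeR adjusted p at most 0.0463). In U87 no gene of the neighbourhood was called, with C9orf72 at 2.36 ± 0.29 (edgeR adjusted p = 0.141) and TUSC1 at -0.39 ± 0.25 (adjusted p = 0.434) of smallest p. IFNW1, IFNA2, IZUMO3, CDKN2A-AS1 and CDKN2B-AS1 were not in the table under these names. Copy number was not measured, and the table gives 1 count per gene, so which exons carry the MTAP reads was not measured either. An annotated readthrough transcript overlaps MTAP and CDKN2B, and the libraries do not keep strand.

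**Figure D3:**
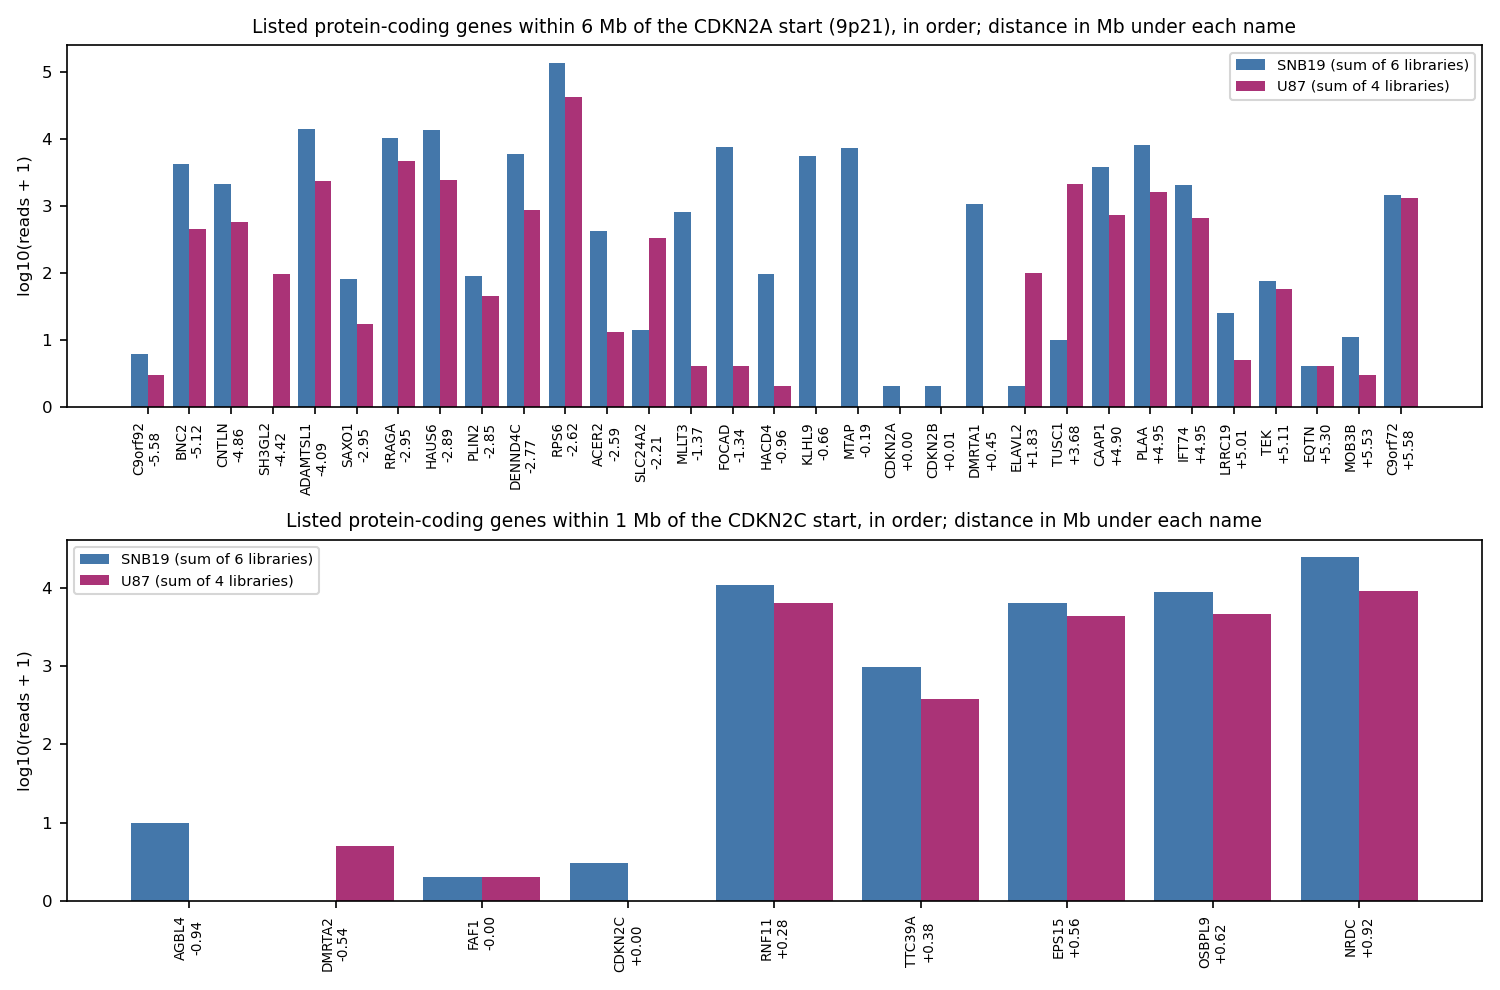
Reads per gene, as log10(reads + 1) summed over the libraries of each line (y), for listed protein-coding genes in map order (x) within 6 Mb of the CDKN2A start (top, interferon genes left out) and within 1 Mb of the CDKN2C start (bottom), with the distance in Mb under each name. U87 had at most 3 reads for each gene drawn from MLLT3 to DMRTA1, where SNB19 had 7112 for MTAP, and FAF1 and CDKN2C had at most 2 reads in either line.

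CDKN2C lies elsewhere, at chr1:50960745-50974633 on the plus strand, and its surroundings were looked at after its values were seen. FAF1, whose annotated span borders it and which encodes a Fas-associated protein, had 1 read in each line. RNF11, 0.276 Mb further on, had 11059 reads in SNB19 and 6377 in U87, and TTC39A, EPS15, OSBPL9 and NRDC beyond it were expressed in both lines. On the far side of FAF1, AGBL4 had 9 reads in SNB19 and none in U87, and DMRTA2 none and 4. CDKN2C and FAF1 thus had at most 2 reads over all libraries of either line, whichever the state of MEOX2. The listed genes from RNF11 on were expressed, whereas those on the far side of FAF1 were low as well.

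Other members lay on separate chromosomes and were not near one another. CDKN1A is at chr6:36676460-36687339 on the plus strand, CDKN1B at chr12:12715058-12722371 on the plus strand, CDKN2D at chr19:10566462-10569059 on the minus strand and RB1 at chr13:48303726-48599436 on the plus strand. CDKN1C at chr11:2883213-2885773 on the minus strand and CCND1 at chr11:69641087-69654474 on the plus strand share a chromosome at a distance. The changes above therefore concern several loci.

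The genes whose levels followed 3 of the members most closely over the 10 libraries were found by Pearson's correlation of log2 CPM, as a description, since the 4 groups and the contrast of the lines dominate such a value. They were FCRLA (r = 0.9982), CREG1 (0.9975) and PITRM1 (0.9955) for CDKN1A, HMGA2 (0.9981), IL13RA1 (0.9979) and CDH13 (0.9973) for CCND1, and AC092279.2, CSAG1 and ZNF607 (0.9998 each) for MTAP.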

How the data were processed

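Polyadenylated RNA of SNB19 (NC 3, siMEOX2 3) and U87 (EV 2, OE 2) was sequenced as 150-base pairs without strand. The authors deposited a table of read counts per gene and, beside them, FPKM values, which the deposited lengths show to be counts per kilobase of GENCODE 29 exon union scaled to the reads in the table, where every listed gene has a read. The submitters' processing notes name HISAT2, HTSeq 0.11.2 and DESeq2 1.26.0 on GRCh38, and settings were not given in the sources used here. Groups came from the sample titles, because the treatment field numbers the vector's gene differently from row to row. Both OE titles carry the same bracketed replicate name, but their counts differed beyond sampling noise (chi-square per degree of freedom 4.63), so they were kept as 2 libraries.

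Counts were tested with edgeR 4.0.16 (R 4.3.3; limma 3.58.1): TMM normalization, filterByExpr, glmQLFit and glmQLFTest (robust), with genes called at a Benjamini-Hochberg adjusted p under 0.05 over all genes tested. Each line was fitted alone, and the contrasts between lines used all 4 groups. The script was tested on simulated data. CPM values are counts-per-million after TMM scaling over 10 libraries; FPKM, used only for the order of genes by level, is as deposited. Means are ± SD, fold changes ± SE. No fold was given where both groups held at most 3 reads, and CDKN1C, with 2 reads in EV, was given a ratio with its counting interval. Depth was 12533775 to 16560324 reads a library, and counting limits cover counting error only. Alternatives were DESeq2 1.42.0, its size factors, no filter, each library left out, a replicate block, other sets of groups, the study's fold threshold, and a gene-length term.

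The members and lists were chosen with earlier results of these data known. Named genes were all members, MEOX2, and from each list reported at most the 4 called genes of smallest p in each line, or, where under 2 were called, the 2 of smallest p, and every gene of the 9p21 neighbourhood; genes named to complete a sentence beyond this (CDK4, CCND2, RBFOX3, EPCAM, the CDKN2C neighbours, and distant 9p genes) were chosen after their values were seen. The result of 1 list is not reported here. Replicate numbers are shared between groups, but the samples were not paired in the main fits.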

Additional observations from a re-analysis of the deposited data

Results flagged for a closer look

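The effects of 2 genes were singled out because the effect of MEOX2 differed between the lines by a test of the difference itself. That test gave all 4 groups the same spread and had no gene-length term. Neither U87 effect was called in the fit of U87 alone. For CDKN1A the effect of higher MEOX2 was larger in SNB19 than in U87 by 1.00 on the log2 scale (edgeR adjusted p = 0.00326), with all 3 NC libraries above all 3 siMEOX2 libraries and both OE libraries above both EV libraries. For CDKN2D the difference was 2.47 (edgeR adjusted p = 0.00195), with all 3 NC libraries above the knockdown libraries in SNB19 but both OE libraries below both EV libraries in U87. The size of the change in MEOX2 also differed between the lines, and its part in either result was not tested. Groups of 2 or 3 libraries were too small for a check of single outlying samples.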

How the results depend on the processing

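In SNB19 the count of 6 lower members was unchanged under DESeq2, its size factors, no filter and each library left out (6 to 6 members, 7677 to 9090 genes), but was 2 (2622 genes) with all 4 groups in the same fit, whose spread includes the EV pair, and 1 (1669 genes) at the study's fold threshold. MTAP passed only with a gene-length term (log2 0.17, edgeR adjusted p = 0.0132), an alternative chosen after seeing the data, which gave 7 members.

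In U87 the count of 0 members and 0 genes became 1 and 1863 without the filter, 1 and 991 with DESeq2, 2 and 4375 with all 4 groups, and 1 and 2094 at the study's threshold. It stayed at 0 members, with 18 genes, with the gene-length term. Leaving out libraries gave 0 to 4 members and 37 to 10616 genes, the higher counts without an EV library, where EV replicate 2 alone left 7052 genes and EV replicate 1 alone 10616.

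Between the control groups the 2 groups alone gave 4 members and 6425 genes. For the difference between lines, leaving out libraries gave 2 to 5 members and 2129 to 10440 genes, with 5 members without EV replicate 1 and 4 without EV replicate 2, and RB1 turned from -0.04 to 0.47 without EV replicate 1 (its range was -1.01 to 0.47). DESeq2 added CDKN1B there (0.75, adjusted p = 0.0379).

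In SNB19 replicate numbers gave no sign of pairing, with correlated deviations of 0.003, -0.012 and 0.058 between same-numbered libraries. In U87 the value was -0.242 for same and 0.242 for crossed numbers. With 2 libraries a group the deviations mirror each other, so these values cannot decide on pairing in U87. The replicate block gave 6 members (8633 genes) in SNB19 and 0 members (484 genes) in U87. With the U87 numbers crossed, an alternative chosen after seeing the data, the block gave 1 member and 1167 genes. For the difference between lines, a replicate block within each line, also chosen after seeing the data, gave the same 2 members (CDKN1A and CDKN2D) and 2068 genes. For NC against EV no paired analysis was possible because the libraries come from different lines.

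Counts of at most 3 in a group left CDKN1C in U87 and CDKN2A, CDKN2B and CDKN2C in both lines without a detectable change.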

Other observations

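The U87 reads from MLLT3 to DMRTA1 were unevenly spread over libraries. Both EV libraries and OE replicate 1 held 0 reads over the 16 listed genes, and OE replicate 2 held all 12, from 8 genes. The same library had 2 reads of HBB and no read of MTAP, CDKN2A or CDKN2B.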
